A study of Mus musculus with 12 samples.

Results

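The genes described here carry the Gene Ontology term for RNA splicing in the annotation deposited with an RNA-seq table of 2281 genes. Genes that also carried a term for cell division, DNA repair or chromatin organisation were left out, as were writers of m6A and zinc finger genes left out by name. Of 100 genes with the term, 7 were left out for the other terms and 5 by name. Another 2, Esrp1 and Rbm20, stayed under 1 FPKM (fragments per kilobase of a transcript, relative to all mapped fragments of its library) in all libraries. The 86 genes that remained reached 1 FPKM in at least 3 libraries, out of 2063 genes in the table that did. The choice tested no difference between groups, but a gene could reach 1 FPKM in 3 libraries through 1 group alone. Akap17b reached it only in the 3 libraries with Setdb1 overexpression. The table itself is also a preselected set in which the authors marked every gene as significant.

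Splicing removes introns from precursor RNA and joins the exons. The spliceosome does this with small nuclear ribonucleoproteins (snRNPs), which recognise the ends of the intron and the branch point, are rearranged by helicases and carry out both steps of the reaction. SR proteins bind exons and promote splicing, hnRNP proteins often oppose it, and sequence-specific regulators set the choice between alternative exons. After splicing, the exon junction complex marks the joined exons, and export factors take the RNA to the cytoplasm. Germ cells are known for an unusually large repertoire of alternative exons.

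GC1 is an established mouse line of spermatogonial origin. The 4 groups, each of 3 libraries at 24 h, were wild type, a Ythdf2 knockout (Ythdf2-ko), the knockout with a control for overexpression (Ythdf2-ko-OE-CTR, here the control) and the knockout with Setdb1 overexpression (Ythdf2-koOE-setdb1). Ythdf2 encodes a reader of m6A that promotes decay of the RNA it binds, and Setdb1 encodes a methyltransferase for lysine 9 of histone H3. The 3 knockout groups share a line code, so the knockout cannot be told apart from other differences between that line and wild-type cells. The edited site, the vector and the number of clones are not given in the labels. Nor do they say whether libraries of a group came from separate cultures, so p-values measure the spread between these libraries, which may be technical.

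Ythdf2 RNA was lower but present in the knockout, at 9.0 ± 0.43 FPKM in wild type, 6.05 ± 0.244 in the knockout, 6.14 ± 0.103 in the control and 4.63 ± 0.383 with Setdb1 overexpression (SD, n = 3 each). Its level with Setdb1 overexpression was below that of the control (limma, adjusted p = 0.000189). Setdb1 itself was not analysed here. Of 13 germ cell markers looked for, Etv5, Bcl6b, Cd9 and Itga6 were in the table, and their sum was 114 ± 0.494 FPKM in wild type, 70.9 ± 1.43 in the knockout, 78.6 ± 1.65 in the control and 69.6 ± 3.68 with Setdb1 overexpression. The summed table held between 75955 and 81924 FPKM per library, and read depth is unknown. Haemoglobin RNA stood out in wild-type libraries 2 and 3 and knockout libraries 1 and 2, with a mean over 4 globin genes of 128, 51.2, 150 and 45.1 FPKM against at most 1.28 in the other 8 libraries. Results that rest on these libraries are also given without them, which leaves 1 wild-type and 1 knockout library whose spread is taken from the other groups.

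Splicing genes were expressed at every level between Akap17b, with a mean of 1.01 FPKM over the 12 libraries, and Hnrnpa1, with 172 FPKM. Their median was 14.7 FPKM. Summed over the 86 genes, the 3 libraries held 1904, 1825 and 1910 FPKM in wild type, 1893, 1899 and 1839 in the knockout, and 1838, 1871 and 1858 in the control. With Setdb1 overexpression the sums were 1999, 2019 and 1994 FPKM, all above every other library. The mean sum was 1.08 times that of the control, and the median over the genes, at 15.0 ± 0.405 against 13.2 ± 0.202 FPKM, was 1.13 times as high. In bulk RNA fewer cells of a kind and less RNA per cell cannot be told apart.

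**Figure D1:**
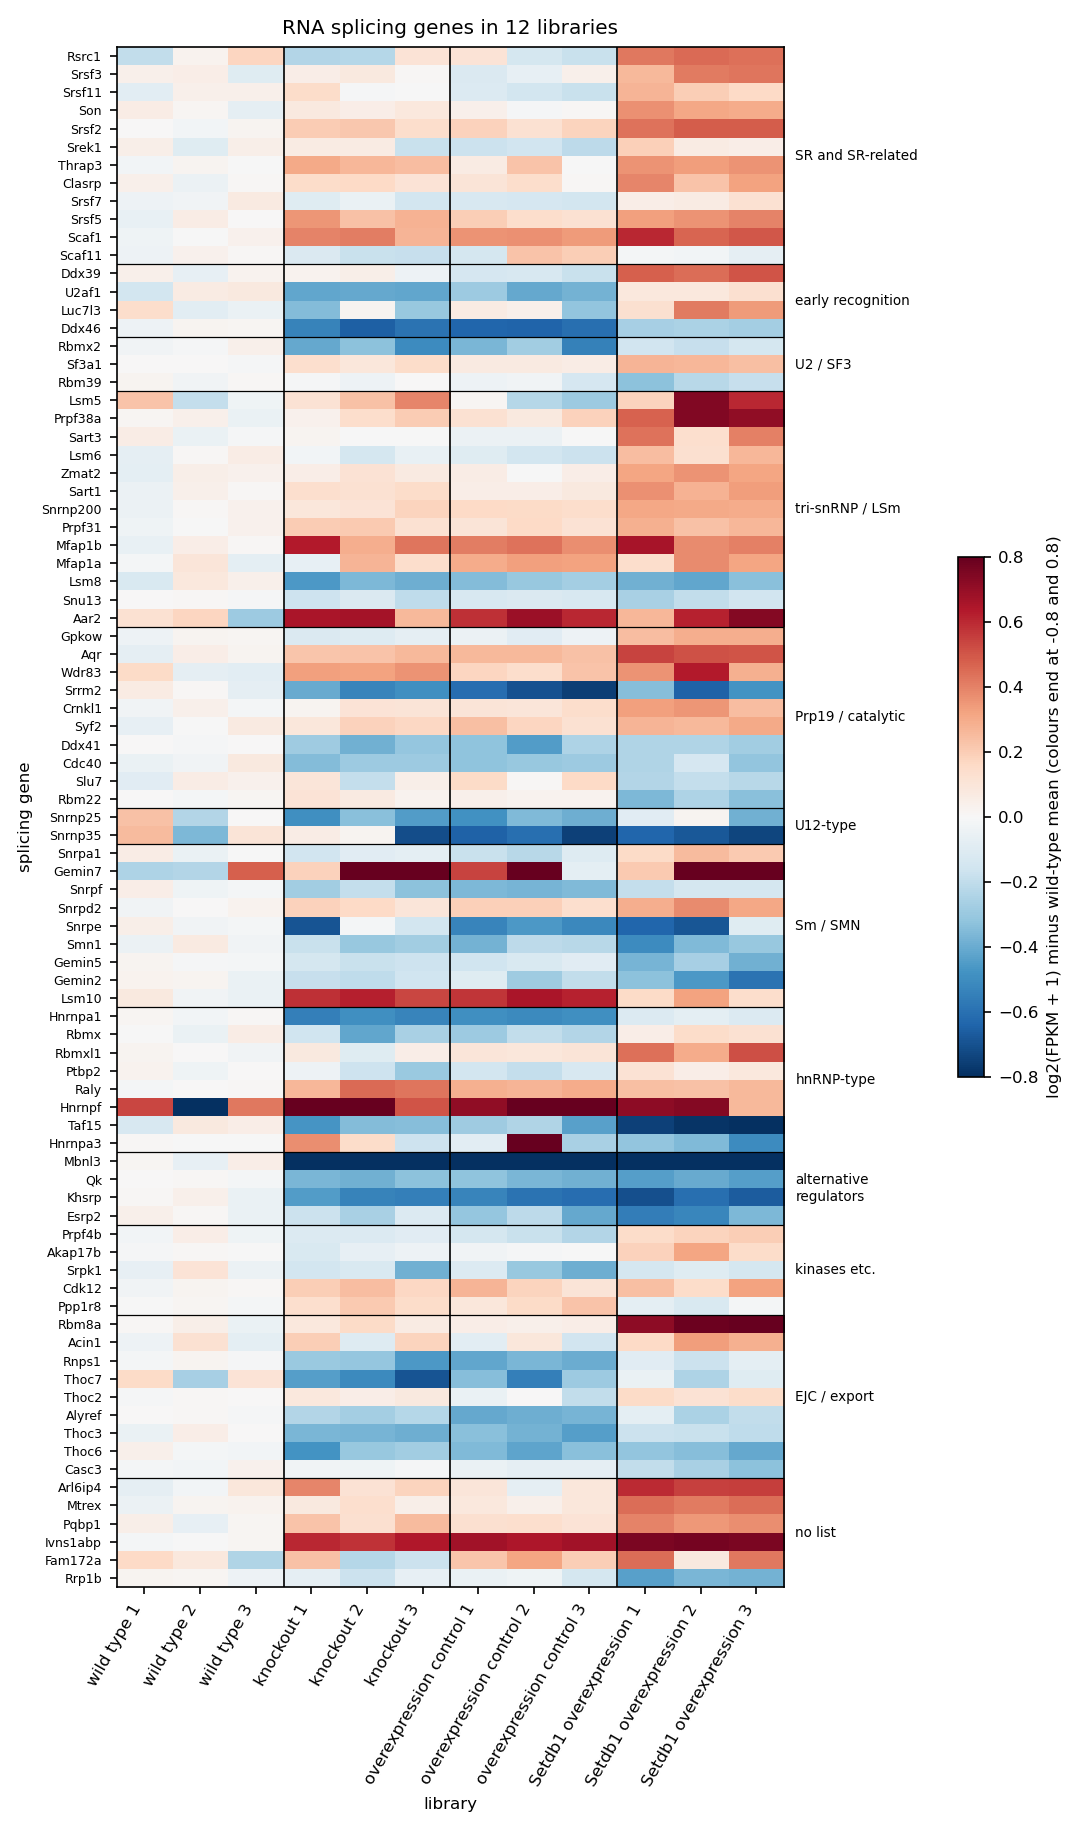
Level of the splicing genes shown (rows, grouped by role) in each of the 12 libraries (columns), as log2(FPKM + 1) minus the wild-type mean, with colours ending at -0.8 and 0.8. The knockout and control columns look alike in most rows, Mbnl3 is low in all knockout groups, and most SR rows are red in the 3 libraries with Setdb1 overexpression.

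Knockout was first set against wild type, to see which splicing genes differed in the line that lacks the m6A reader or has less of it. All 4 alternative splicing regulators, 5 of 9 exon junction and export genes and 3 of 5 genes of early splice-site recognition fell, and among SR genes and tri-snRNP genes more rose than fell. These counts are of genes with the splicing term. Among other tested genes on the same role lists, 4 rose and 3 fell of 9 alternative regulators, and 4 of 4 exon junction and export genes rose. Of 4 early recognition genes 1 rose and 1 fell, and the same held for 4 SR genes. Of 4 tri-snRNP genes 3 rose and 1 fell. Of the 86 genes, 25 rose and 33 fell in limma at an adjusted p under 0.05, and under median-of-ratios scaling of the libraries 29 rose and 29 fell. Among all 2063 tested genes 37.8% rose and 39.5% fell, so neither count of splicing genes was above the background of this preselected table. The median difference of the splicing genes was -0.02 on the log2(FPKM + 1) scale, and that of all tested genes was -0.01. The libraries did not overlap between groups for 57 of the 58 genes that changed, and for 97.3% of all tested genes that did. Without the 4 libraries with haemoglobin RNA, 16 of the 86 rose and 20 fell, where 25.8% of all tested genes rose and 28.8% fell.

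The 4 sequence-specific regulators among the genes all fell. Mbnl3, which encodes a muscleblind protein that binds RNA and sets the choice of exons, held 5.43, 5.06 and 5.59 FPKM in wild type and 1.50, 1.60 and 1.54 FPKM in the knockout. It stayed low in the control, at 1.57, 1.82 and 1.93 FPKM, and with Setdb1 overexpression, at 1.94, 2.11 and 1.75 FPKM. No wild-type library came near any knockout library, and the log2(FPKM + 1) difference of -1.32 (SE 0.060, adjusted p = 2.27e-08) was the largest fall of the 86. Khsrp, which encodes a KH-domain protein of splicing and mRNA decay, held 55.3, 56.7 and 53.0 FPKM in wild type against 40.0, 37.7 and 37.3 in the knockout, a fall of 0.51 (SE 0.038, adjusted p = 7.55e-07). Qk, which encodes the quaking protein, held 18.1, 18.2 and 17.9 FPKM in wild type and 13.8, 13.6 and 14.2 in the knockout, and it fell by 0.36 (SE 0.024, adjusted p = 3.67e-07). In both genes the libraries of each group lay close together and far from the other group. Esrp2, an epithelial splicing regulator, was at 7.38 ± 0.284 FPKM in wild type and 6.41 ± 0.385 in the knockout, and fell by 0.18 (adjusted p = 0.0289). Esrp2 did not pass without wild-type library 1 or 2 or knockout library 1 or 2, with an adjusted p of up to 0.105, nor without the haemoglobin libraries (adjusted p = 0.339) or with a replicate block (adjusted p = 0.0519). Epithelial markers moved in the same direction: 4 of 7 were in the table (Elf3, Krt19, Krt8 and Krt14), and their sum ranged from 838 to 871 FPKM in wild type and from 347 to 356 in the knockout. Their part in the fall of Esrp2 was not tested.

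Early recognition factors find the ends of the intron. Of 5 such genes 3 fell in the knockout and none rose in limma, also at an unadjusted p under 0.05. Ddx46, the helicase that prepares the branch site for the U2 snRNP, held 20.4, 21.4 and 21.3 FPKM in wild type and 14.2, 13.0 and 13.7 in the knockout and fell by 0.59 (SE 0.032, adjusted p = 7.02e-08). U2af1, the small subunit of the factor that reads the acceptor site, held 23.6, 27.5 and 27.8 FPKM in wild type and 19.4, 19.5 and 19.5 in the knockout and fell by 0.41 (SE 0.054, adjusted p = 5.69e-05). Wild-type library 1 was the lowest of its group for U2af1 and still above all knockout libraries. Without the haemoglobin libraries 2 of the 5 fell. Of the 3 genes of the U2 snRNP and SF3 complex, Rbmx2 fell by 0.41 and Sf3a1, a core SF3 subunit, rose by 0.12.

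Of the 9 genes with the splicing term that act around the finished exon junction, 5 fell and 1 rose, while the other 4 tested genes of that role list all rose. Thoc7 (-0.55), Thoc3 (-0.38) and Thoc6 (-0.35), which encode subunits of the THO complex that couples transcription to export, all fell. Rnps1, part of the complexes that sit on the exon junction, went from 11.9 ± 0.183 to 9.11 ± 0.635 FPKM (-0.36, adjusted p = 3.8e-05), and the export adaptor gene Alyref went from 17.5 ± 0.141 to 14.6 ± 0.267 FPKM (-0.24, adjusted p = 0.000201). Rbm8a, which encodes the Y14 core protein of the junction complex, was the member that rose, by 0.10 (adjusted p = 0.0224). It did not pass without knockout library 2, without wild-type library 3 or without the haemoglobin libraries. Without the latter 4 of the 9 fell, Alyref not among them (adjusted p = 0.0546), and Rbm8a was at 0.06 (adjusted p = 0.403).

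Among hnRNP-type genes 4 of 8 fell and 2 rose. Hnrnpa1, a repressor of exon inclusion with the highest mean over the 12 libraries, held 209, 203 and 208 FPKM in wild type and 141, 147 and 143 in the knockout. The fall was 0.52 (SE 0.019, adjusted p = 5.48e-09), with a gap between the groups far wider than their spread. Taf15, a FET-family RNA-binding protein, held 74.3, 85.9 and 84.6 FPKM in wild type and 58.3, 63.8 and 64.1 in the knockout and fell by 0.39 (adjusted p = 0.000272), with an adjusted p of 0.0888 without the haemoglobin libraries. Raly, an hnRNP C-like protein, rose from 85.1 ± 0.705 to 111 ± 7.93 FPKM (0.38, adjusted p = 1.04e-05). Hnrnpf was uneven, at 138, 48.5 and 128 FPKM in wild type and 201, 176 and 135 in the knockout, and the groups overlapped. Its rise of 0.82 (SE 0.34, adjusted p = 0.0479) did not pass without wild-type library 2 or without knockout library 1 or 2, with an adjusted p of up to 0.135. Without the haemoglobin libraries the difference was -0.03. Processed copies of Hnrnpa1 and Hnrnpf are known in the mouse genome, and how the counting split reads between copies is not given.

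Assembly of the Sm core is carried out by the SMN complex. Of 9 genes of the Sm core and this step 5 fell and 2 rose in the knockout. Smn1 (-0.25), Gemin5 (-0.16), which reads the snRNA, and Gemin2 (-0.18) fell, with the Sm gene Snrpf (-0.26) and the U2 snRNP gene Snrpa1 (-0.11), and the Sm gene Snrpd2 rose (0.15). Without the haemoglobin libraries 1 of the 9 fell and 1 rose. Leaving out wild-type library 1 or knockout library 1 or 2 left 3 that fell. Gemin2 (adjusted p up to 0.0749) and Snrpa1 (up to 0.139) each did not pass under 4 of the 6 leave-outs. Lsm10, which belongs to the U7 snRNP of histone messages, went the other way, from 18.3, 16.9 and 16.6 FPKM in wild type to 26.5, 27.1 and 25.5 in the knockout. All knockout libraries lay above all wild-type libraries, a rise of 0.58 (SE 0.051, adjusted p = 2.74e-06).

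Of 13 genes of the tri-snRNP and its LSm ring, 5 rose and 2 fell, and the counts were the same without the haemoglobin libraries. Aar2, which holds the core U5 protein during assembly, was at 10.8 ± 1.97 FPKM in wild type and 16.0 ± 2.58 in the knockout and rose by 0.53 (adjusted p = 0.00989). It did not pass without those libraries, where its difference was 0.14, and Zmat2 (0.16) passed there instead. Mfap1b rose by 0.45, and Prpf31 (0.18), Sart1 (0.13) and the U5 helicase gene Snrnp200 (0.13) rose by less. Lsm8, the subunit that keeps the LSm ring in the nucleus, fell by 0.40 and Snu13 by 0.16. Mfap1b has a near-identical copy, Mfap1a, and reads may be shared between them. In the catalytic complexes 3 of 10 genes rose and 4 fell. The helicase gene Aqr (0.24), Wdr83 (0.34) and Syf2 (0.14) rose, and the falls were the scaffold gene Srrm2 (-0.48), the helicase gene Ddx41 (-0.33), Cdc40 (-0.31) and Gpkow (-0.10). Without the haemoglobin libraries these counts were 2 and 2, and Wdr83, Cdc40 and Gpkow did not pass.

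SR and SR-related genes numbered 12, of which 5 rose, 1 fell and 6 did not pass. Scaf1 (0.36), Srsf5 (0.29), Thrap3 (0.27), Srsf2 (0.19) and Clasrp (0.14) rose, and Srsf7 fell by 0.10. Under leave-outs of 1 library the rises numbered 4 to 6, and without the haemoglobin libraries 3 rose, and Thrap3 (adjusted p = 0.0661), Clasrp (0.573) and Srsf7 (0.0882) did not pass. Srsf7 also did not pass without wild-type library 3 or knockout library 3, and Clasrp without wild-type library 2 or knockout library 1 or 2. Of the minor spliceosome, which handles rare U12-type introns, Snrnp25 fell by 0.42, and Snrnp35, at 10.7, 6.62 and 9.49 FPKM in wild type and 9.17, 8.92 and 4.97 in the knockout, did not pass. Snrnp35 differed by -0.21 (adjusted p = 0.353), and by -0.97 without the haemoglobin libraries, where it passed (adjusted p = 0.000401). Kinase and phosphatase genes were split: Cdk12 (0.20) and the phosphatase regulator gene Ppp1r8 (0.16) rose, and Prpf4b (-0.10) and the SR kinase gene Srpk1 (-0.22) fell. None of these 4 passed without the haemoglobin libraries, and Srpk1 did not pass without wild-type library 2 or knockout library 3 either, nor Prpf4b without wild-type library 2. Of 6 genes outside the role lists 4 rose and 1 fell. The fall, of Rrp1b (-0.10, adjusted p = 0.0466), did not pass without wild-type library 1 or 2 or knockout library 1 or 2, without the haemoglobin libraries, or under 6 other settings, with an adjusted p of up to 0.341. Arl6ip4, among the rises, did not pass without wild-type library 1 (adjusted p = 0.0503). Ivns1abp, which encodes a kelch protein, held 47.3, 47.7 and 48.3 FPKM in wild type and 73.2, 71.7 and 74.9 in the knockout. That rise of 0.61 (SE 0.018, adjusted p = 1.36e-09) had the lowest p of the 86 genes.

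**Figure D2:**
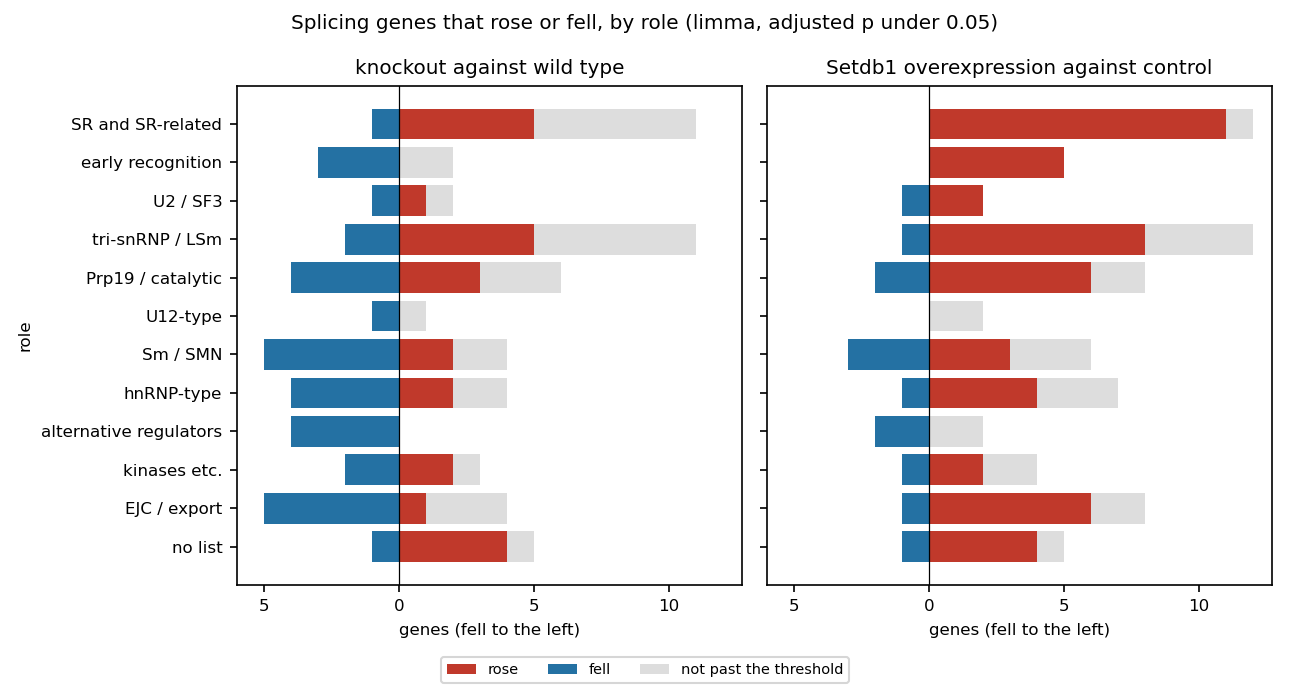
Number of splicing genes in each role that rose (right, red), fell (left, blue) or did not pass the threshold (grey) in limma, for knockout against wild type and for Setdb1 overexpression against its control. All 4 alternative regulators fell in the left panel, and 11 of 12 SR and SR-related genes rose in the right panel.

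The control was set against the unmodified knockout, both without Setdb1 overexpression. Few splicing genes differed between these groups. None of the 86 genes rose and 3 fell in limma, where 3.64% of all tested genes rose and 5.04% fell. At an unadjusted p under 0.05 the counts were 3 rises and 16 falls, against 221 and 285 of all 2063 tested genes. The 3 falls that passed after adjustment were Srsf11 (-0.19, adjusted p = 0.0476), the helicase gene Ddx39 (-0.16, adjusted p = 0.0189) and Alyref (-0.15, adjusted p = 0.0411). Srsf11 and Alyref did not pass when any 1 of the 6 libraries was left out, with adjusted p up to 0.135 and 0.115, and Ddx39 did not pass without knockout library 1 or 2 or control library 3, with adjusted p up to 0.0667. Counts under these leave-outs ran from 0 to 4: none passed without knockout library 2 or control library 3, 1 without knockout library 1 and 4 without knockout library 3. With libraries rescaled by the median of ratios, 1 gene rose and 2 fell. Differences of the 86 genes ran from -0.45 to 0.30.

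Setdb1 overexpression was set against its control to see which splicing genes differed in knockout cells that were made to overexpress the methyltransferase. Splicing genes were mostly higher: 51 of 86 rose and 13 fell, where 36.1% of all tested genes rose and 31.8% fell. The median difference of the 86 genes was 0.21, and that of all tested genes was 0.02. Groups did not overlap for 50 of the 51 genes that rose and 12 of the 13 that fell, and for 97.2% of all tested genes that rose or fell. Leaving out 1 library at a time gave 48 to 51 rises and 10 to 13 falls. None of the 6 libraries in this comparison was among those with haemoglobin RNA, whose mean was at most 0.147 FPKM in them.

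SR and SR-related genes rose almost as a whole, 11 of 12, with a median difference of 0.27. None fell in limma, also at an unadjusted p under 0.05. The same count of 11 rises was found with each of the 6 libraries left out, and Scaf11 was the gene that did not pass (-0.13, adjusted p = 0.166). Scaf11 was uneven in the control, at 13.4, 17.6 and 17.2 FPKM, and without control library 1 it counted as a fall. Srsf3, a classical SR protein and an export adaptor, held 14.1, 14.7 and 15.9 FPKM in the control and 18.6, 20.9 and 21.1 with Setdb1 overexpression, a rise of 0.41 (SE 0.058, adjusted p = 0.000125). Srsf2, an SR protein of the nuclear speckle, held 42.5, 40.8 and 42.4 FPKM in the control and 50.8, 52.6 and 52.6 with Setdb1 overexpression and rose by 0.31 (SE 0.026, adjusted p = 3.03e-06). In both genes the lowest library with Setdb1 overexpression was above the highest of each of the other 3 groups. Srsf11 held 11.3, 11.0 and 10.7 FPKM in the control and 15.0, 14.2 and 13.8 with Setdb1 overexpression and rose by 0.36 (adjusted p = 0.000136). Srsf7 held 21.0, 20.9 and 20.7 FPKM in the control and 23.9, 24.2 and 25.1 with Setdb1 overexpression and rose by 0.21 (adjusted p = 0.000283). In neither of these genes did the groups overlap. The speckle scaffold gene Son rose from 20.5 ± 0.381 to 25.6 ± 0.716 FPKM. Rsrc1 had the largest log2 difference of the role (0.51) at a low level, from 1.43 ± 0.269 to 2.44 ± 0.0397 FPKM. Differences of Srek1 (0.28), Thrap3 (0.25), Clasrp (0.23), Srsf5 (0.21) and Scaf1 (0.17) were smaller. The control itself lay below the unmodified knockout in 10 of the 12 genes and above it in 2, with a median difference of -0.06.

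Promoters of 4 of these SR genes are shown because the genes rose together, so that their start regions can be read side by side. Each runs from 250 bases before the RefSeq start to 50 bases after it, on the gene's own strand in build GRCm38.p6. Srsf2 lies at chr11:116853045-116853344 on the minus strand, Srsf3 at chr17:29032410-29032709 on the plus strand, Srsf7 at chr17:80207256-80207555 on the minus strand and Srsf11 at chr3:158036557-158036856 on the minus strand. Capitals mark the TATA box TATAAA, the CCAAT box and also the ETS-type core CCGGAAG, each on either strand. A CCAAT box on the opposite strand appears as its reverse complement.
Srsf2: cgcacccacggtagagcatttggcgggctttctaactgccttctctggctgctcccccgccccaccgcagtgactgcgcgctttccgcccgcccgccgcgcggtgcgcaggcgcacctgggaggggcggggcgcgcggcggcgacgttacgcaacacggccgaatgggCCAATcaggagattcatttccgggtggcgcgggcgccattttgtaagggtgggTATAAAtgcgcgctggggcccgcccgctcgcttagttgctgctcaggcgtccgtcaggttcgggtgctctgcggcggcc
Srsf3: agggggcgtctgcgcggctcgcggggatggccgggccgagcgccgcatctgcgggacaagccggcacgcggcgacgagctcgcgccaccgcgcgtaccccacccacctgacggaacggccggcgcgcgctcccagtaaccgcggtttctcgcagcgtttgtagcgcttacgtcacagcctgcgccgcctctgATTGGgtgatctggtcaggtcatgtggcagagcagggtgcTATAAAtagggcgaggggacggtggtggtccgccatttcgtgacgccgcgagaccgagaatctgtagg
Srsf7: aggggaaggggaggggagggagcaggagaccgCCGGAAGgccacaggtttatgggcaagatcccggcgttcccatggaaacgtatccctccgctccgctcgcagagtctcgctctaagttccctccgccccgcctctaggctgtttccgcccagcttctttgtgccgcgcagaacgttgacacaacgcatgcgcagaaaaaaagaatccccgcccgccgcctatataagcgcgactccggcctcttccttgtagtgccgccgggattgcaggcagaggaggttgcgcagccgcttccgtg
Srsf11: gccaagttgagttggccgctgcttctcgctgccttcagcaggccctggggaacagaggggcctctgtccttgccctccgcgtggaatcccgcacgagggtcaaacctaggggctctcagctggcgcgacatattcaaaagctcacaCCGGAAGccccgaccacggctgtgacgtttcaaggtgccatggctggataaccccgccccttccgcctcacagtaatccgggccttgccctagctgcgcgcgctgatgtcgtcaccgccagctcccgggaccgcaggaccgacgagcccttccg
Srsf2 and Srsf3 share a CCAAT box and a TATA box, and Srsf7 and Srsf11 each hold the ETS-type core. A second window of Srsf11, at chr3:158031699-158031998, is not printed and also holds that core. RefSeq promoter windows were found for 75 of the 86 splicing genes, 95 windows in all, and 32.6% of these windows held CCGGAAG on either strand. The share was 15.6% of 2106 windows of the tested genes and 8.86% of all 32851 windows in the table. Of 15 windows of the SR and SR-related genes 7, in 5 genes, held it. TATAAA was in only 2 of these 15 windows, those of Srsf2 and Srsf3, and CCAAT was in 4 (26.7%). CCAAT was in 35.8% of the windows of splicing genes, 38.7% of those of tested genes and 37.4% of all. The GC box GGGCGG, not capitalised, was in 66.3% of both gene sets and 35.7% of all windows, and TATAAA was in 7.37%, 8.26% and 13.6%. These 4 motifs were picked by their textbook names, and the ETS-type core was chosen for display after its counts were seen. A match describes letters in the window and is not a measured binding site.

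All 5 genes of early recognition rose with Setdb1 overexpression, with a median difference of 0.37. Ddx39, a DEAD-box helicase of splicing and export, held 19.2, 19.3 and 18.7 FPKM in the control and 30.0, 29.2 and 30.4 with Setdb1 overexpression, a rise of 0.62 (SE 0.033, adjusted p = 1.38e-07). U2af1 held 21.2, 19.5 and 20.0 FPKM in the control and 27.9, 27.9 and 28.7 with Setdb1 overexpression and rose by 0.46 (SE 0.054, adjusted p = 3.73e-05). Ddx46 held 13.2, 13.1 and 13.5 FPKM in the control and 17.4, 17.5 and 17.2 with Setdb1 overexpression and rose by 0.36 (SE 0.032, adjusted p = 3.77e-06). None of these 3 genes overlapped between the groups. Luc7l3, a U1-associated SR-like protein, rose by 0.37 (adjusted p = 0.0279) but did not pass without control library 3 or Setdb1 library 2 or 3, with an adjusted p of up to 0.109. In the U2 group Rbmx2 (0.24) and Sf3a1 (0.19) rose and Rbm39 fell by 0.18.

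Rbm8a had the largest rise of the 86 genes. It held 11.6, 11.4 and 11.6 FPKM in the control and 18.9, 19.9 and 20.1 with Setdb1 overexpression, 1.70 times the control mean (log2 difference 0.72, SE 0.035, adjusted p = 6.65e-08). The libraries of the other 3 groups all lay between 10.7 and 12.5 FPKM. Of 9 exon junction and export genes 6 rose, among them Acin1 (0.31), Rnps1 (0.28) and Alyref (0.22). Acin1 did not pass without control library 3, with an adjusted p of 0.0522. Casc3, another core gene of the junction complex, fell from 23.0 ± 0.147 to 20.0 ± 0.941 FPKM (-0.20, adjusted p = 0.000221), so genes of that core moved in opposite directions. A near-identical retrogene of Rbm8a is known in the mouse, and reads may be shared with it.

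**Figure D3:**
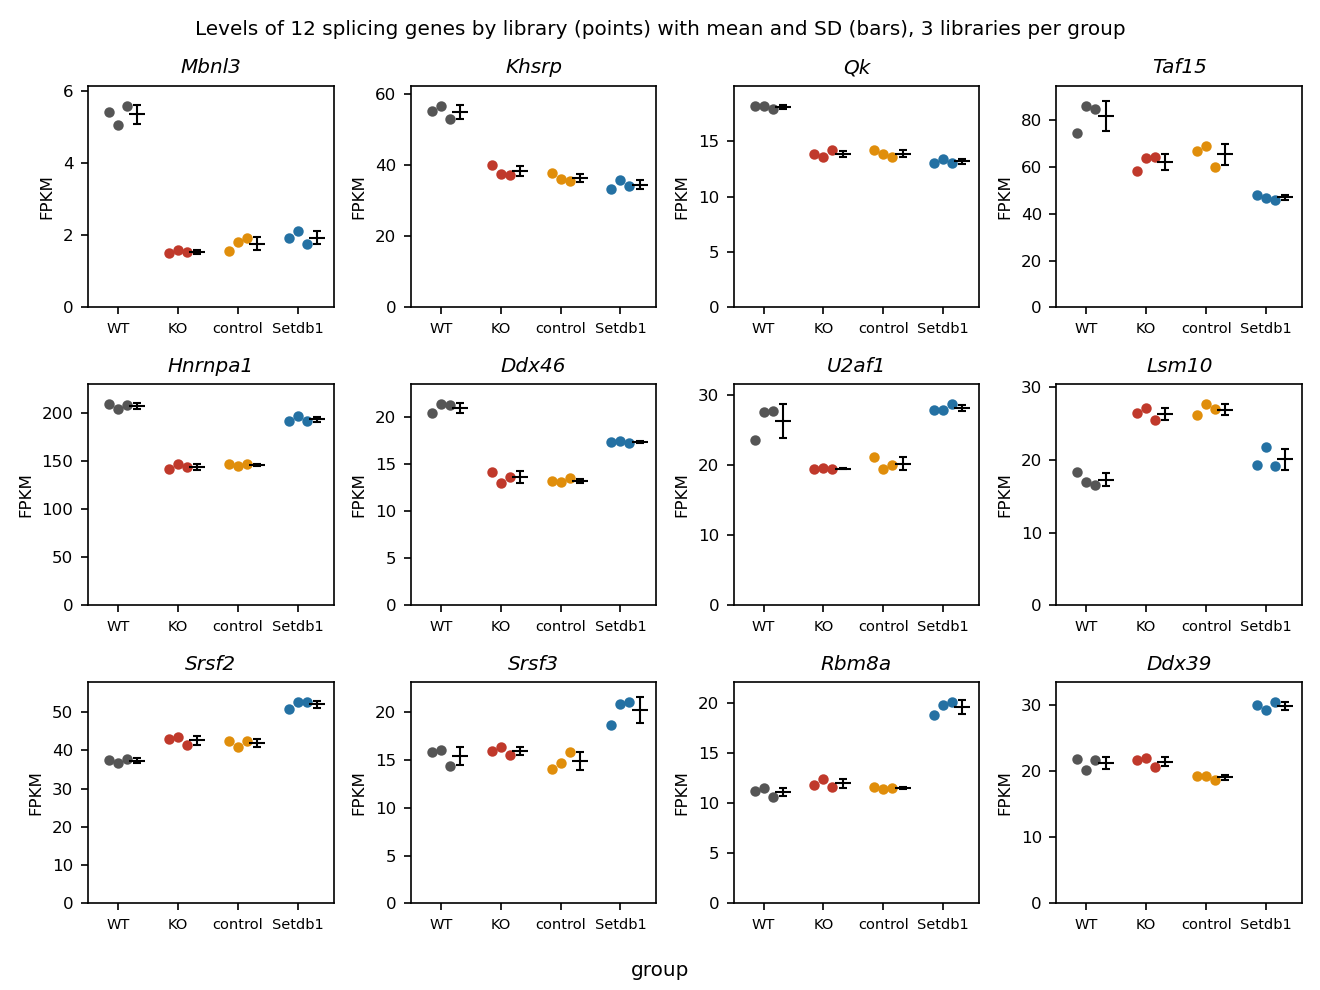
FPKM of 12 splicing genes in each library (points) with the group mean and SD (bars), for wild type (WT), knockout (KO), overexpression control and Setdb1 overexpression, with axes from 0. Mbnl3, Khsrp and Qk stay low in all 3 knockout groups, Hnrnpa1, Ddx46 and U2af1 are lowest in knockout and control, and Srsf2, Srsf3, Rbm8a and Ddx39 are highest with Setdb1 overexpression.

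In the tri-snRNP and LSm group 8 of 13 genes rose and 1 fell with Setdb1 overexpression. Lsm5 was among the largest by its difference of 0.68 (SE 0.15, adjusted p = 0.00287), but its libraries were scattered, at 4.12, 3.34 and 3.14 FPKM in the control and 4.75, 7.48 and 6.69 with Setdb1 overexpression. Prpf38a, needed for activation of the spliceosome, rose by 0.51, from 5.26 ± 0.229 to 7.95 ± 0.870 FPKM. The recycling factor gene Sart3 (0.36), Lsm6 (0.35), Zmat2 (0.30), Sart1 (0.27), Snrnp200 (0.15) and Prpf31 (0.14) also rose, and Snu13 fell by 0.08, though not under 4 of the 6 leave-outs (adjusted p up to 0.103). In the catalytic complexes 6 of 10 genes rose, led by Gpkow (0.34) and Aqr (0.27). Of these, Wdr83 did not pass under 3 leave-outs, Srrm2 under 4 and Syf2 under 5, with adjusted p up to 0.166. The 2 that fell were Rbm22, which contacts the catalytic centre, from 10.3 ± 0.0614 to 7.93 ± 0.369 FPKM (-0.34, adjusted p = 7.55e-06), and the second-step factor gene Slu7 (-0.32, adjusted p = 0.00249).

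Other roles were mixed with Setdb1 overexpression. Of 8 hnRNP-type genes 4 rose, and Hnrnpa1 went from 147, 145 and 147 FPKM in the control to 192, 196 and 191, a rise of 0.40 (SE 0.019, adjusted p = 5.96e-08). Rbmx (0.35) and its retrogene Rbmxl1 (0.32) both rose, and reads may be shared between them. Taf15 fell from 66.8, 68.9 and 60.1 FPKM to 48.1, 46.8 and 45.9, by 0.46 (SE 0.064, adjusted p = 0.00011), the largest fall that passed. Hnrnpa3 had a lower mean difference of -0.66 that did not pass (adjusted p = 0.0741) and rested on control library 2, at 13.3 FPKM against 5.05 and 4.37 in the other 2. Of the Sm and SMN genes 3 rose and 3 fell: Snrpa1 (0.37), Snrpf (0.20) and Snrpd2 (0.15) rose, and Lsm10 (-0.41), Gemin2 (-0.27) and Gemin5 (-0.22) fell. None of the 4 alternative regulators rose in limma, also at an unadjusted p under 0.05. Mbnl3 differed by 0.08 (adjusted p = 0.243), Khsrp differed by -0.08 (adjusted p = 0.0802), and Qk (-0.07) and Esrp2 (-0.17) fell. Qk did not pass without control library 1 or Setdb1 library 1 or 3 (adjusted p up to 0.0897), and Esrp2 did not pass without library 1 or 2 of either group (adjusted p up to 0.151). The sum of epithelial markers, 382 to 399 FPKM in the control and 330 to 342 with Setdb1 overexpression, moved in the direction of Esrp2, and its part was not tested. Of the U12-type genes 0 of 2 passed in limma, and 0 at an unadjusted p under 0.05. Of the kinase and phosphatase genes Prpf4b (0.36) and Akap17b (0.23) rose, Ppp1r8 fell by 0.23, and Srpk1 did not pass (0.14, adjusted p = 0.168). Akap17b reached 1 FPKM only in the 3 libraries with Setdb1 overexpression. It met the filter through the group where it was high, so its place among the rises is partly built into the choice of genes. Arl6ip4 (0.53) and the exosome helicase gene Mtrex (0.36), outside the role lists, rose, and Rrp1b fell by 0.31.

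Knockout against wild type and Setdb1 overexpression against control share no library, so calls in both can be set side by side. Of the 33 splicing genes that fell in the knockout, 16 rose with Setdb1 overexpression, 48.5% of those that fell. Among all tested genes the share was 275 of 815, or 33.7%, and genes with this combination made up 13.3% of the tested genes. Of all 86 splicing genes 59.3% rose with Setdb1 overexpression, more than the share of those that fell in the knockout. Without the haemoglobin libraries, which leaves 1 wild-type and 1 knockout library, the count of splicing genes was lower. The share over all tested genes was not computed there, so the drop cannot be judged. Among the 16 were Alyref, Ddx46, Gpkow, Hnrnpa1, Prpf4b, Ptbp2, Rbmx, Rbmx2, Rnps1, Snrpa1, Snrpf, Srrm2, Srsf7, Thoc3 and U2af1. Of the 25 genes that rose in the knockout, 18 rose again with Setdb1 overexpression, 72% against 37.1% of all tested genes that rose. Some of these 18 rested on single libraries. Among them, Rbm8a, Clasrp and Arl6ip4 lost the knockout call under leave-outs of 1 library, and Syf2 and Wdr83 lost the Setdb1 call. The 2 that rose and then fell were Lsm10 and Ppp1r8, and the 7 that fell in both comparisons were Esrp2, Gemin2, Gemin5, Qk, Rrp1b, Snu13 and Taf15, and all but Gemin5 and Taf15 lost a call in 1 or both comparisons when 1 library was left out. No test of these shares was made.

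**Figure D4:**
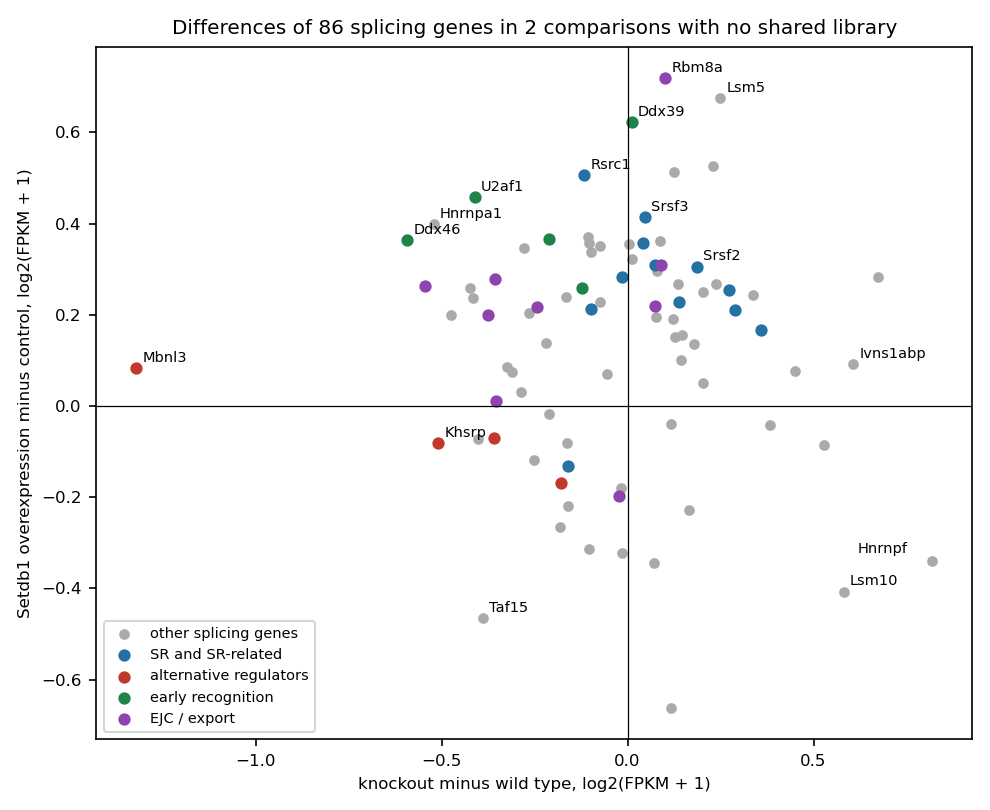
Difference of each of the 86 splicing genes in knockout against wild type (horizontal) and in Setdb1 overexpression against its control (vertical), both on the log2(FPKM + 1) scale, coloured by role. Most points lie above 0 on the vertical axis whatever their place on the horizontal axis, and Mbnl3 stands alone at -1.32.

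Setdb1 overexpression was also set against wild type, a comparison that shares libraries with both others. Of the 86 genes 43 rose and 28 fell, where 40.8% of all tested genes rose and 45.3% fell, and the median difference was 0.21 against -0.04. Without the haemoglobin libraries, which leaves 1 wild-type library, the medians were 0.15 and -0.04. For U2af1 the group means were 26.3 ± 2.37 FPKM in wild type and 28.2 ± 0.482 with Setdb1 overexpression, a difference of 0.10 (adjusted p = 0.111), which passed as a rise without the haemoglobin libraries (0.25, adjusted p = 0.00455). Hnrnpa1 fell against wild type, by 0.10 (adjusted p = 0.000677), and so did Ddx46, by 0.26 (adjusted p = 2.04e-05). Of the 16 genes that fell and then rose, 8 were below wild type, 4 did not pass and 4 were above it. Those above were Gpkow, Prpf4b, Snrpa1 and Srsf7, of which Srsf7 did not pass under 4 of the 6 leave-outs and Snrpa1 did not pass without the haemoglobin libraries. Among those below, Rbmx2 did not pass under 5 leave-outs and Rnps1 under 4, and neither passed without the haemoglobin libraries. All 18 genes that rose in both comparisons were above wild type, among them Rbm8a (0.77), Aqr (0.52), Scaf1 (0.52) and Srsf2 (0.47). On the log2 scale this difference is the sum of those in both comparisons and of control against knockout. The outcome was therefore largely set by how the 18 genes were chosen. Of the SR and SR-related genes 10 of 12 were above wild type, and of the tri-snRNP and LSm genes 11 of 13, or 8 without the haemoglobin libraries. The 4 alternative regulators were all below it, with Mbnl3 at -1.12 and Khsrp at -0.66, and Taf15 fell by 0.78.

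A further 69 genes of the same textbook role lists were tested in the table without being among the 86, most of them without the splicing term. With Setdb1 overexpression against control 31 of them (44.9%) rose and 15 (21.7%) fell, with a median difference of 0.11. Of all tested genes 36.1% rose and 31.8% fell there. Of 4 SR-type genes among them, Srsf4 (0.52), Scaf4 (0.31) and Srsf6 (0.28) rose and Scaf8 (-0.15) fell. Srrt, an adaptor between the cap and RNA processing, had the largest rise (0.64, adjusted p = 1.22e-06), and Hnrnpdl (0.48), the helicase gene Dhx38 (0.43), Srrm1 (0.41) and Ddx23 (0.38), the helicase of the tri-snRNP, also rose. The falls included Ern1 (-0.42), the kinase and nuclease that splices Xbp1 RNA and Wdr77 (-0.41), a partner in Sm protein methylation. In the knockout against wild type 26 of the 69 (37.7%) rose and 22 (31.9%) fell, where 37.8% of all tested genes rose and 39.5% fell.

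Many splicing factor genes make transcripts with premature stop codons that are degraded by nonsense-mediated decay, a known means of self-control of SR and hnRNP genes. By the transcript classes in the authors' deposited table, 34 of the 86 genes (39.5%) have a transcript of that class, against 27.7% of the 2063 tested genes. A retained-intron transcript is listed for 59 (68.6%), against 63.3%. Of the 12 SR and SR-related genes 10 have a decay transcript and 11 a retained-intron transcript. With Setdb1 overexpression against control 25 of the 34 splicing genes with a decay transcript rose (73.5%) and 3 fell. Of the 52 without such a transcript 26 rose (50%) and 10 fell. The 34 include the 10 SR and SR-related genes, a role in which nearly all genes rose. Over all tested genes 194 of 571 with a decay transcript rose (34.0%) and 187 fell. Of 1492 without such a transcript 550 rose (36.9%) and 469 fell, so these 2 shares of rises differed little. Levels per gene do not say which transcripts made them up, and no levels of single transcripts were used here.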

How the data were processed

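RNA of 12 libraries of GC1 cells was measured in 4 groups of 3. The authors deposited 1 table of FPKM values for 2281 genes, with 1 column per library. In the authors' deposited table each gene also had 1 p-value of at most 0.05 and 1 q-value of at most 0.113, without saying which groups they compare, and 18 of the 86 splicing genes had a q-value above 0.05. All genes of the table were marked significant and carried terms from a list of the submitters, so percentages describe this set and not the transcriptome. Tools named, per the submitters' processing notes, were HISAT2, StringTie, cutadapt, DESeq2 and edgeR, without version or role. Genome build and depth were not given in the sources used here. All 2281 gene IDs matched a symbol in GENCODE M21. Transcript classes are those of the authors' deposited table, and promoter sequences are those of RefSeq.

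Values were analysed as log2(FPKM + 1), on which changes of low genes look smaller than they are. Genes with at least 1 FPKM in at least 3 libraries were tested. limma-trend (limma 3.58.1, R 4.3.3) was fitted with 4 group means over the 12 libraries, and two-sided p-values were adjusted by Benjamini-Hochberg over all 2063 genes of each comparison. An adjusted p under 0.05 counted as a rise or a fall. The fit was tried on simulated data with independent noise in each library. Those data held no pattern shared between libraries, so they cannot show how the fit behaves where one is present. Differences are first group minus second on the log2 scale, and values are mean ± SD over 3 libraries. The design was written for a whole transcriptome and was not altered. To see whether library numbers mark pairs, the group mean of each gene was subtracted, and the deviations were correlated between libraries of the compared groups. Deviations of same-numbered libraries correlated between -0.70 and 0.41 in knockout and wild type. In the other comparisons they correlated between -0.04 and 0.09, so the numbers were not taken as pairs. Deviations of differently numbered libraries of knockout and wild type correlated between -0.68 and 0.77. The value was 0.77 for knockout library 3 with wild-type library 1, and 0.64 for knockout library 1 with wild-type library 2. Pairs alike in haemoglobin RNA all correlated positively, from 0.35 to 0.77. Pairs of a library with it and a library without it all correlated negatively, from -0.70 to -0.49. The main fit had no term for this shared pattern, and its source was not tested.

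The genes and the role lists were chosen with earlier results of these data known. Named by rule were, per comparison, up to 8 genes with the highest and 8 with the lowest difference among those that passed with no overlap, up to 3 more per role, and a short list of textbook factors. Other genes were named after their values were seen, to complete the count of a role or for uneven libraries. Values of some genes that enter the counts are not reported here. Alternatives were another pseudocount, other filters, scalings and variance models, a block for the replicate number, and leaving out libraries.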

Additional observations from a re-analysis of the deposited data

How the results depend on the processing

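For knockout against wild type, with 25 rises and 33 falls, median-of-ratios scaling gave 29 and 29 and quantile normalization gave 28 and 27. Against the 58 splicing genes past the threshold between knockout and wild type, 36 passed without the 4 libraries with haemoglobin RNA, 16 of which rose and 20 fell. That fit has 1 library in each of these groups, so fewer samples and those libraries cannot be told apart as the source of the lower count. Without them 10 genes fell in the knockout and rose with Setdb1 overexpression, in place of 16. For the control against the knockout, with 3 falls, a minimum of 5 FPKM gave 5, all falls, leaving out the haemoglobin libraries gave 1 fall, a model term for them gave 0, and median-of-ratios scaling gave 1 rise. Leaving out 1 library at a time gave 0 to 4 calls in that comparison, with 0 to 1 rises and 0 to 3 falls. The ratio of Setdb1 overexpression to control was 1.08 by the sum and 1.13 by the median over the genes.

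Differences that changed sign were small apart from Hnrnpf, at -0.0312 in the knockout without the haemoglobin libraries. There Srsf3 was also at -0.0300, against a range from -0.0014 to 0.0742 with 1 library left out. For the control against the knockout, Srsf2 was at 0.0181 without these libraries, and Srpk1 was at 0.118 without them, at 0.0666 with the model term, and between -0.13 and 0.0142 with 1 library left out. The causes were not tested. A replicate block gave 25 rises and 30 falls between knockout and wild type, 0 and 2 between control and knockout, 51 and 12 between Setdb1 overexpression and control, and 44 and 27 between Setdb1 overexpression and wild type.

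Depth is unknown, so no counting error can be given. The knockout cannot be told apart from other differences of its line, which all 3 knockout groups share, and gene levels do not show which exons were joined.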
